A study of Homo sapiens with 8 samples.

Results

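SR proteins and hnRNPs are the RNA-binding proteins that help the spliceosome decide which exons enter an mRNA. Their genes were followed across 8 RNA sequencing libraries of K562, a human erythroleukaemia line. Genes were taken where the deposited transcript lists gave a gene symbol beginning with SRSF and a number or with HNRNP, or the symbol TRA2A, TRA2B, PTBP1, PCBP1 or PCBP2. This gave 31 genes of 23628 in all, of which 10 were SRSF genes and 17 carried an HNRNP symbol, with TRA2A, TRA2B, PTBP1 and PCBP1. PCBP2 and 10 further genes of these families carried no symbol in any of the 8 lists, were reached through RefSeq accessions alone and are described apart.

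The groups were K700E_induced (cells with an SF3B1-K700E transgene, given 1 ug/ml doxycycline for 48 h), K700E_uninduced (the same transgene, uninduced), WT_induced (an SF3B1-WT transgene, given doxycycline likewise) and WT_uninduced (that transgene, uninduced), with 2 libraries each. SF3B1 is the spliceosome subunit that holds the branch point region of the intron, and the stated purpose was to follow expression and splicing upon induction. Whether the cells' own SF3B1 genes were kept is not stated. Nothing says whether replicates came from separate cultures or the lines from single clones, so p-values measure the spread between these libraries, which may be technical.

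SR proteins carry RNA recognition motifs and a tail rich in arginine and serine, bind exonic enhancers and mostly favour exon inclusion. hnRNPs coat nascent RNA and often favour exon skipping. Many of these genes hold an exon or intron that brings a stop codon into the reading frame (a poison exon), and its inclusion sends the transcript to nonsense-mediated decay, by which several SR proteins limit their own level. RefSeq lists such forms as noncoding transcripts (names beginning with NR_), beside the coding ones (NM_).

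Of the members, SRSF1, SRSF3, SRSF6 and SRSF10 had both a coding and a noncoding RefSeq transcript. The noncoding exons of SRSF3, SRSF6 and SRSF10 are shown from the start of the exon to the stop codon that the coding frame meets in it, because the isoform results below turn on whether this sequence is kept. Capitals mark the stop codon. Letters were read from GENCODE release 29 transcripts on GRCh38, whose internal exon lengths equalled those of the deposited hg19 models. The SRSF3 stretch lies at chr6:36599821-36599854 on the plus strand, the SRSF6 stretch at chr20:43459153-43459304 on the plus strand and the SRSF10 stretch at chr1:23978673-23978817 on the minus strand.
SRSF3: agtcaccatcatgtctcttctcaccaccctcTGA
SRSF6: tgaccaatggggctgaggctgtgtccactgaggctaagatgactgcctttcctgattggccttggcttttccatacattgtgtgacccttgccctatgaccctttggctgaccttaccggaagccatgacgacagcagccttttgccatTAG
SRSF10: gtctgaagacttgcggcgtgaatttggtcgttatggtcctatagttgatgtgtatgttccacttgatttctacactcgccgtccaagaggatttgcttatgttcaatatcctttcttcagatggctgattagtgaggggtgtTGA
The SRSF3 exon is 456 nt long (36567598 to 36568053 on chromosome 6 of hg19), all of it outside the coding form, and the frame stopped 34 bases into it after 124 codons. In SRSF6 the exon is 268 nt long (42087793 to 42088060 on chromosome 20 of hg19), again wholly outside the coding form, with the stop 152 bases in. The SRSF10 exon is 165 nt long (24305143 to 24305307 on chromosome 1 of hg19), a coding exon extended by 58 bases that no coding form holds, and the stop fell in that extension, 145 bases in.

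No SR protein or hnRNP gene passed the test in any comparison. Gene levels are FPKM (fragments scaled to transcript length and to the mapped fragments of the library), summed over the reference transcripts of a gene and the transcripts that the authors' software had assembled for it in each library. They were tested as log2(FPKM + 0.5) with limma in 5 comparisons, over the 11398 genes with a mean of 1 FPKM or more, at a Benjamini-Hochberg adjusted p under 0.05. Of the 31 members, 27 were tested. The pseudogenes HNRNPA1P33, HNRNPA3P1 and HNRNPKP3 and the SR protein gene SRSF12 lay under the limit, at no more than 0.417 FPKM in any library. Across all genes the test called 0.00877% on K700E induction and 0.00877% on WT induction. It called 0.0263% for K700E_induced against WT_induced, 0% for K700E_uninduced against WT_uninduced and 0.0175% for the interaction of line and induction, so few calls were made anywhere. An unadjusted p under 0.05 was reached by 2 members on K700E induction (HNRNPA2B1 and SRSF5), by TRA2A on WT induction, by SRSF5 where the induced lines were compared, by TRA2A where the uninduced ones were, and by TRA2A for the interaction. That is 7.41% of members on K700E induction and 3.70% in each other comparison, against 4.22% to 5.20% of all genes, so the members' counts were near the background.

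SF3B1 itself, summed over transgene and endogenous reads as far as both match the reference, was at 28.98 and 39.5 FPKM in K700E_induced, 34.6 and 30.4 FPKM in K700E_uninduced, 36.6 and 27.3 FPKM in WT_induced and 37.7 and 31.7 FPKM in WT_uninduced, so the 4 groups overlapped and induction could not be checked from the total. All 14 erythroid marker genes listed for K562 averaged 1 FPKM or more, with summed levels of 10671 to 16707 FPKM in K700E_induced, 12678 to 18764 in K700E_uninduced, 8842 to 10338 in WT_induced and 9387 to 10705 in WT_uninduced. Of 13 markers of other cell types, 8 averaged 1 FPKM or more, chiefly KRT8 and VIM, and MS4A1 and MPO were at 0 in all libraries; their sum was 414 to 491 FPKM in K700E_induced, 799.6 to 977 in K700E_uninduced, 426 to 529 in WT_induced and 401 to 655 in WT_uninduced. The part of these markers in the results was not tested. Depth is known only as coverage per FPKM, 3.35 to 4.88, and for member transcripts at 10 FPKM or more the deposited interval spanned 5.48% to 6.29% of the value to either side (median by library), an error of estimation within a library. In these bulk libraries fewer cells with a transcript and less RNA per cell cannot be told apart.

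The 27 members tested were well expressed. The 13 protein-coding HNRNP genes tested had a median level of 98.3 FPKM (range of gene means 38.5 to 182) and the 9 SRSF genes one of 40.8 FPKM (9.39 to 107), against 11.6 FPKM over all genes tested. Among the 27 members PCBP1 and PTBP1 had the highest means, 216 and 210.5 FPKM, and HNRNPA2B1 followed at 182 FPKM; of the genes reached by accession alone, HNRNPA1 (678 FPKM), PCBP2 (394 FPKM) and HNRNPL (235 FPKM) were higher still and HNRNPK (198 FPKM) lay between. From library to library a member's highest level was 1.24 times (HNRNPF) to 8.09 times (SRSF8) its lowest, with a median of 2.38. Neighbours in the order, such as HNRNPC (124 to 180.3 FPKM) and HNRNPD (98.5 to 235 FPKM), did not differ beyond this spread.

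**Figure D1:**
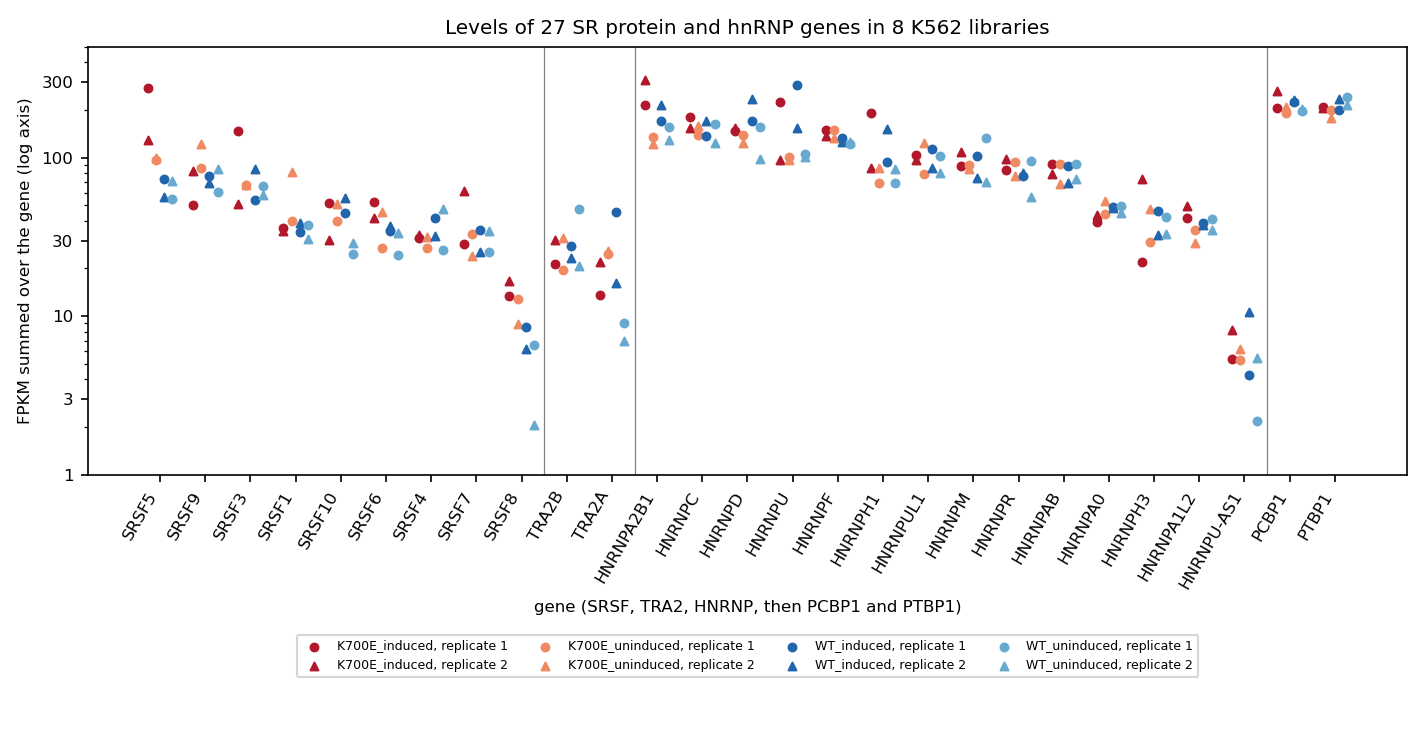
FPKM (log axis) of the 27 genes tested, each point a library, coloured by group and shaped by replicate number. HNRNPF spanned 1.24 times between its lowest and highest library and SRSF8 8.09 times; SRSF5, SRSF3 and HNRNPU each had 1 or 2 libraries far above the others.

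Among the SR proteins, SRSF5 stood out by size. SRSF5 (70233829 to 70238722 on chromosome 14, plus strand) encodes an SR protein also known as SRp40 and was at 274 and 129 FPKM in K700E_induced, 97.3 and 99.3 FPKM in K700E_uninduced, 73.9 and 56.7 FPKM in WT_induced and 54.8 and 70.9 FPKM in WT_uninduced. All 4 libraries of the K700E line lay above all 4 of the WT line, and the induced K700E libraries above the uninduced ones. The log2 fold change was 1.52 (SE 0.39) between the induced lines, the lowest adjusted p of any member in that comparison at 0.801 by limma, and 0.93 (SE 0.39) on K700E induction, 0.05 (SE 0.39) on WT induction and 0.64 (SE 0.39) for the uninduced lines. Assembled transcripts held 76.6% and 67.5% of SRSF5 in K700E_induced, 53.5% and 33.4% in K700E_uninduced, 100% and 0% in WT_induced and 0% in both WT_uninduced libraries; in K700E_induced replicate 1 a 373-nt fragment with 2 introns alone had 171 FPKM. On reference transcripts alone SRSF5 was at 64.1 and 41.9 FPKM in K700E_induced, 45.3 and 66.1 FPKM in K700E_uninduced, 0 and 56.7 FPKM in WT_induced and 54.8 and 70.9 FPKM in WT_uninduced. The lines then overlapped, and the change turned to -0.07 on K700E induction and -0.19 for the uninduced lines. Between the induced lines it was 3.28 (SE 1.87) and on WT induction -3.54 (SE 1.87), both with WT_induced replicate 1 listed at 0.

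SRSF1, the founding member of the family and an exonic enhancer binder, was at 35.8 and 34.3 FPKM in K700E_induced, 40.1 and 81.6 FPKM in K700E_uninduced, 34.0 and 38.5 FPKM in WT_induced and 37.7 and 30.8 FPKM in WT_uninduced. Only K700E_uninduced replicate 2 stood well above the rest. The log2 fold change was -0.70 (SE 0.42) on K700E induction and 0.73 (SE 0.42) between the uninduced lines, with limma adjusted p of 1 and 0.971, and on reference transcripts alone these were 0.92 and -0.88. SRSF9, a short SR protein close to SRSF1, was at 50.2 and 82.9 FPKM in K700E_induced, 86.2 and 123 FPKM in K700E_uninduced, 76.3 and 69.7 FPKM in WT_induced and 60.9 and 84.5 FPKM in WT_uninduced. Its induced K700E libraries lay below the uninduced ones (log2 fold change -0.67, SE 0.37, limma adjusted p 1), and it had no assembled transcript in any library.

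SRSF3, the smallest SR protein and an autoregulated splicing and export factor, was at 148 and 51.0 FPKM in K700E_induced, 66.98 and 66.9 FPKM in K700E_uninduced, 53.7 and 84.4 FPKM in WT_induced and 66.5 and 58.0 FPKM in WT_uninduced. The replicates of K700E_induced were the highest and the lowest of the 8. SRSF7, which shares the export role, was at 28.7 and 61.6 FPKM in K700E_induced, 33.2 and 24.0 FPKM in K700E_uninduced, 35.1 and 25.4 FPKM in WT_induced and 25.4 and 34.7 FPKM in WT_uninduced, again with 1 induced K700E library apart and groups that overlapped. No comparison of either gene had a log2 fold change beyond 0.57, with standard errors of 0.46 or more.

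SRSF4 and SRSF6 are long SR proteins with paired RNA recognition motifs. For SRSF4 the levels were 31.0 and 32.6 FPKM in K700E_induced, 27.02 and 31.8 FPKM in K700E_uninduced, 41.5 and 32.1 FPKM in WT_induced and 26.4 and 47.3 FPKM in WT_uninduced, with overlap in every pair of groups compared. For SRSF6 they were 52.3 and 41.4 FPKM in K700E_induced, 27.02 and 45.3 FPKM in K700E_uninduced, 34.7 and 36.8 FPKM in WT_induced and 24.3 and 33.7 FPKM in WT_uninduced. The induced libraries of SRSF6 lay above the uninduced ones in the WT line (log2 fold change 0.31, SE 0.40, limma adjusted p 0.998), and K700E_induced lay above WT_induced by 0.37 (SE 0.40, limma adjusted p 0.963), which became -0.26 on reference transcripts alone.

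SRSF10, a splicing repressor that becomes active when dephosphorylated, was at 52.2 and 30.3 FPKM in K700E_induced, 39.8 and 50.7 FPKM in K700E_uninduced, 44.5 and 55.5 FPKM in WT_induced and 24.7 and 29.2 FPKM in WT_uninduced. The 2 WT_uninduced libraries were the lowest of the 8, so the log2 fold change was 0.87 (SE 0.39) on WT induction and 0.72 (SE 0.39) between the uninduced lines, with limma adjusted p of 0.997 and 0.971. SRSF8, a retrogene without introns in the deposited model, was at 13.4 and 16.6 FPKM in K700E_induced, 12.8 and 8.93 FPKM in K700E_uninduced, 8.56 and 6.21 FPKM in WT_induced and 6.58 and 2.05 FPKM in WT_uninduced. Here too each library of the K700E line lay above each of the WT line, with log2 fold changes of 0.98 (SE 0.67) between the induced lines and 1.39 (SE 0.67) between the uninduced ones and limma adjusted p of 0.951 and 0.971. Reads of such a copy cannot be told apart from those of SRSF2, from which it derives, where the sequences are the same.

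TRA2A and TRA2B are the vertebrate counterparts of the fly Transformer-2 protein, and both activate exons rich in GAA repeats. TRA2A (23544401 to 23571656 on chromosome 7, minus strand) was at 13.6 and 21.9 FPKM in K700E_induced, 24.7 and 25.8 FPKM in K700E_uninduced, 45.3 and 16.2 FPKM in WT_induced and 9.08 and 7.001 FPKM in WT_uninduced. The 2 WT_uninduced libraries were lower than all others. This gave the widest values of any member on WT induction (log2 fold change 1.70, SE 0.58, limma adjusted p 0.997), between the uninduced lines (1.59, SE 0.58, limma adjusted p 0.971) and for the interaction (-2.24, SE 0.81, limma adjusted p 0.999), and -0.53 (SE 0.58, limma adjusted p 1) on K700E induction. In WT_induced replicate 2 all of TRA2A was assembled, and in K700E_uninduced replicate 1 71.0% of it was. On reference transcripts alone K700E_uninduced replicate 1 was at 7.18 FPKM, so the uninduced lines overlapped. The change was then -0.80 on WT induction and 0.33 on K700E induction, so the interaction took the opposite sign. TRA2B was at 21.4 and 30.2 FPKM in K700E_induced, 19.7 and 31.0 FPKM in K700E_uninduced, 27.6 and 23.2 FPKM in WT_induced and 47.3 and 20.7 FPKM in WT_uninduced, with overlapping groups throughout.

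Of the members with an HNRNP symbol, HNRNPU-AS1 among them, 13 of 14 tested had a log2 fold change above 0 on K700E induction and 12 of 14 on WT induction, none past the threshold. Without HNRNPU-AS1 and with the hnRNP genes reached by accession alone, this was 16 of 20 and 13 of 20 (80% and 65%), against 48.4% and 50.3% of all genes. The 20 include HNRNPUL2-BSCL2, which has a noncoding reference transcript only (0.56 and -0.61 on the 2 inductions). They also include HNRNPH2, above 0 in 1 library only, WT_uninduced replicate 2 at 34.2 FPKM (0 and -3.06 on the 2 inductions). HNRNPA2B1 (26229556 to 26240413 on chromosome 7, minus strand), which encodes abundant hnRNP core proteins, was at 214 and 308 FPKM in K700E_induced, 136 and 123 FPKM in K700E_uninduced, 172 and 215 FPKM in WT_induced and 157 and 129 FPKM in WT_uninduced. Induced libraries lay above uninduced ones in each line. The log2 fold change was 0.99 (SE 0.28) on K700E induction and 0.41 (SE 0.28) between the induced lines, with limma adjusted p of 0.978 and 0.951. Assembled forms held 77.6% and 80.0% of the gene in K700E_induced and 78.2% in WT_induced replicate 2, none in the other libraries, and on reference transcripts alone the same differences were -1.23 and -0.75.

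HNRNPU (245013602 to 245027827 on chromosome 1, minus strand), the scaffold attachment factor that binds chromatin-associated RNA, was at 223 and 97.3 FPKM in K700E_induced, 102 and 96.1 FPKM in K700E_uninduced, 288 and 154 FPKM in WT_induced and 105 and 101 FPKM in WT_uninduced. In 5 libraries the level was 96.1 to 105 FPKM, and the other three libraries, all induced, were those where assembled forms held 85.7%, 90.7% and 61.6% of the gene. The log2 fold change on WT induction was 1.02 (SE 0.44, limma adjusted p 0.997), and -1.33 on reference transcripts alone. Its neighbour HNRNPU-AS1, a noncoding transcript, was at 2.19 to 10.7 FPKM. Its deposited model (245003940 to 245010243, minus strand) does not overlap that of HNRNPU. Strand use in the counting is not given in the sources used here.

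HNRNPD, also called AUF1, binds AU-rich elements in mRNAs. It was at 147 and 154 FPKM in K700E_induced, 139 and 125 FPKM in K700E_uninduced, 170.4 and 235 FPKM in WT_induced and 155 and 98.5 FPKM in WT_uninduced. WT_induced was the highest group. The differences were 0.69 on the log2 scale (SE 0.31, limma adjusted p 0.997) on WT induction and -0.41 (SE 0.31, limma adjusted p 0.951) for K700E_induced against WT_induced, which on reference transcripts alone were -0.29 and 0.58. A 990-nt assembled form with 5 introns was found in both WT_induced libraries, at 75.6 and 132 FPKM, and in no other library.

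HNRNPA1L2, a copy of HNRNPA1 whose reads can be shared with it, was at 41.9 and 49.5 FPKM in K700E_induced, 35.1 and 28.9 FPKM in K700E_uninduced, 38.7 and 37.5 FPKM in WT_induced and 41.1 and 35.0 FPKM in WT_uninduced, with log2 fold changes of 0.51 (SE 0.33) on K700E induction and -0.26 (SE 0.33) between the uninduced lines. HNRNPA0 was at 39.1 and 43.5 FPKM in K700E_induced, 44.3 and 53.6 FPKM in K700E_uninduced, 48.8 and 48.1 FPKM in WT_induced and 49.6 and 44.8 FPKM in WT_uninduced, and its log2 fold change between the induced lines was -0.23 (SE 0.31). None of these differences passed (limma adjusted p 0.979 to 1). The remaining tested members, HNRNPAB, HNRNPC, HNRNPF, HNRNPH1, HNRNPH3, HNRNPM, HNRNPR and HNRNPUL1, had log2 fold changes of at most 0.73 to either side of 0, the widest being that of HNRNPH1 on K700E induction (191 and 86.0 FPKM in K700E_induced, against 68.8 and 86.3 FPKM in K700E_uninduced).

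PTBP1, the polypyrimidine tract binding protein that represses exons, and PCBP1, a poly(C) binding protein, varied little, with a highest library 1.35 and 1.37 times the lowest. PTBP1 was at 208 and 205 FPKM in K700E_induced, 201 and 179 FPKM in K700E_uninduced, 199 and 236 FPKM in WT_induced and 241 and 214 FPKM in WT_uninduced; K700E_uninduced lay below WT_uninduced by -0.27 on the log2 scale (SE 0.23, limma adjusted p 0.971). PCBP1 was at 206 and 263 FPKM in K700E_induced, 192 and 208 FPKM in K700E_uninduced, 224 and 232 FPKM in WT_induced and 198 and 203 FPKM in WT_uninduced. No log2 fold change of PCBP1 was beyond 0.22, with a standard error of 0.24.

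**Figure D2:**
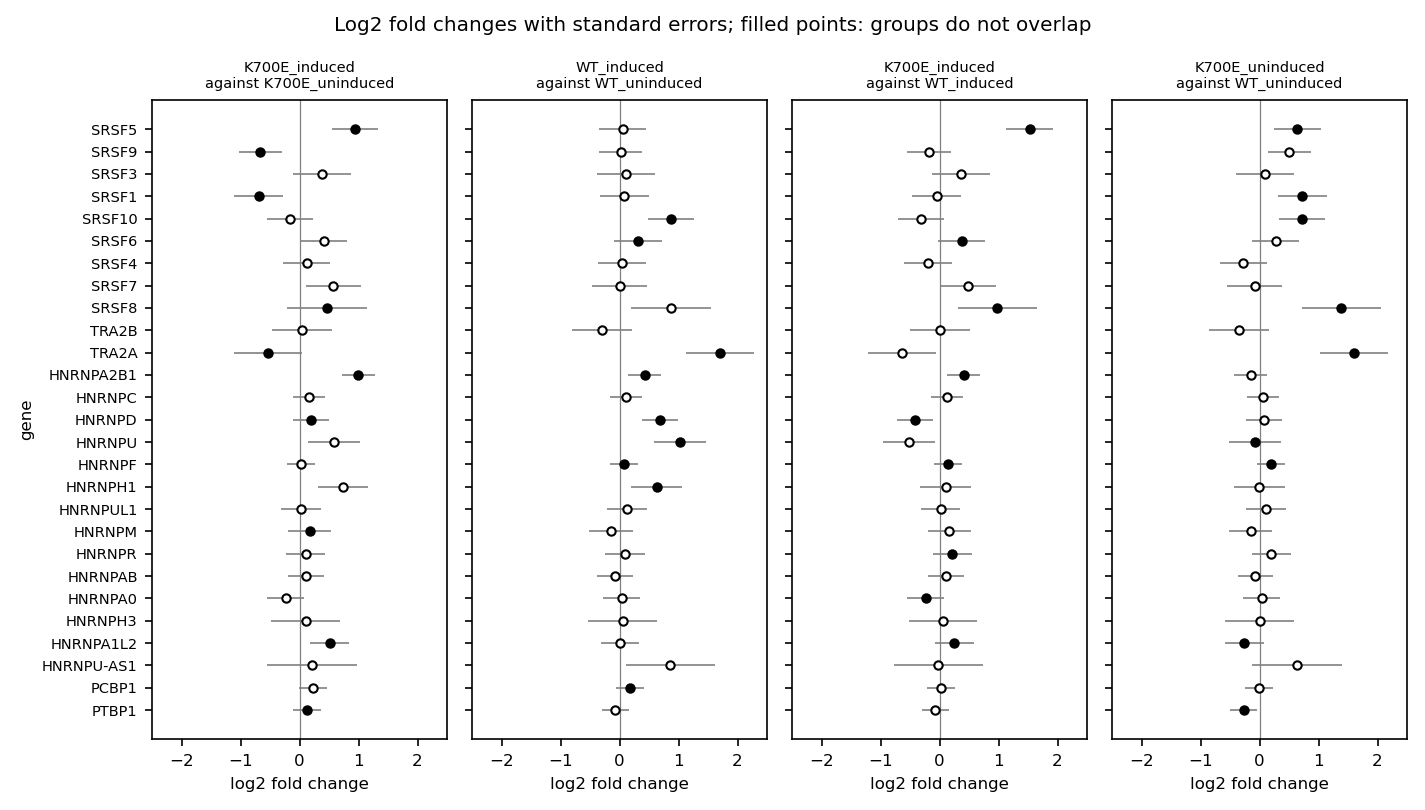
Log2 fold changes (points) with limma standard errors (bars) of the 27 genes tested, in 4 comparisons. Filled points mark genes whose libraries did not overlap between the groups, 10 on K700E induction (7 higher, 3 lower) and 9 on WT induction (all higher), and no gene passed the threshold. Over all genes tested, libraries did not overlap for 16% (higher) and 17.8% (lower) on K700E induction. On WT induction this was 15.1% and 14%.

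Over the members as a set, 22 of 27 had a log2 fold change above 0 on K700E induction (81.5%, median 0.17) and 23 of 27 on WT induction (85.2%, median 0.09), against 48.4% (median -0.01) and 50.3% (median 0.01) of all genes tested. Between the induced lines the number above 0 was 17 (median 0.05, against 0 over all genes), between the uninduced lines 16 (median 0.06, against 0.02) and for the interaction 16 (median 0.05, against -0.05). With the 10 genes reached by accession alone the numbers above 0 were 29 of 37 on K700E induction (78.4%, median 0.13), 25 of 37 on WT induction (67.6%, median 0.05), 24 of 37 between the induced lines (64.9%, median 0.10), 18 of 37 between the uninduced lines (48.6%, median -0.01) and 24 of 37 for the interaction (64.9%, median 0.10). Over the 27 members the induction counts were 19 and 19 on reference transcripts alone, 21 and 21 with FPKM weighted by transcript length, 18 on K700E induction without replicate 1 of K700E_induced or of K700E_uninduced, and 15 on WT induction without WT_uninduced replicate 2. With 1 library left out at a time the median was 0.09 to 0.30 on K700E induction and 0.09 to 0.24 on WT induction. For the interaction the count above 0 was 9 without K700E_uninduced replicate 1 (median -0.07), 11 without WT_uninduced replicate 1 (median -0.14), 12 without K700E_induced replicate 1 (median -0.07) and 13 without WT_induced replicate 2 (median -0.01), so the sign of its median turned with any of these 4 libraries left out; between the uninduced lines the count was 12 to 19 and the median -0.07 to 0.19, below 0 without replicate 2 of K700E_uninduced or of WT_uninduced. The interaction median also fell below 0 on reference transcripts alone, with 13 of 27 members above 0 (median -0.01). On K700E induction the libraries did not overlap for 7 members in the higher and 3 in the lower direction (25.9% and 11.1%), against 16% and 17.8% of all genes. On WT induction this was 9 and 0 members (33.3% and 0%), against 15.1% and 14%. Between the induced lines it was 7 and 2 (25.9% and 7.41%), against 16.3% and 16.6%, and between the uninduced lines 6 and 3 (22.2% and 11.1%), against 16.9% and 15.7%. With the genes reached by accession alone the numbers were 10 and 4 of 37 on K700E induction (27.03% and 10.8%), 10 and 5 on WT induction (27.03% and 13.5%), 11 and 4 between the induced lines (29.7% and 10.8%) and 6 and 5 between the uninduced lines (16.2% and 13.5%). The 5 lower ones on WT induction, HNRNPA3, HNRNPK, HNRNPUL2-BSCL2, PCBP2 and SRSF2, were all outside the members, so the 9 to 0 depends on which genes carried a symbol. No test was made of these counts, since the members were chosen with earlier results known and share libraries.

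The share of assembled transcripts moved with these counts. Summed over the 27 members, the level was 2717 and 2493 FPKM in K700E_induced, 2072 and 2188 FPKM in K700E_uninduced, 2411 and 2403 FPKM in WT_induced and 2151 and 1898 FPKM in WT_uninduced. Assembled transcripts made up 32.8% and 17.6% of it in K700E_induced, 13.7% and 11.1% in K700E_uninduced, 22.6% and 21.8% in WT_induced and 10.99% and 5.92% in WT_uninduced. Both measures were thus higher in each induced library than in each uninduced library of its line. Over all genes tested, the median assembled share was 13.59% and 15.23% in K700E_induced and 15.35% and 14.05% in K700E_uninduced, which overlapped. It was 15.85% and 15.04% in WT_induced and 14.69% and 12.86% in WT_uninduced. Members with an assembled form numbered 8 and 6 in K700E_induced and 9 and 5 in K700E_uninduced. In the WT line they numbered 8 and 8 when induced and 7 and 3 when uninduced. The part of the assembly in the result was not tested beyond the alternatives above. The assembled forms hardly recurred: of 60 in 17 members, 55 were found in 1 library only, and of 68 reference transcripts of members 20 were above 0 in all 8 libraries, 40 in some and 8 in none. Recurrence over all genes was not counted.

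**Figure D3:**
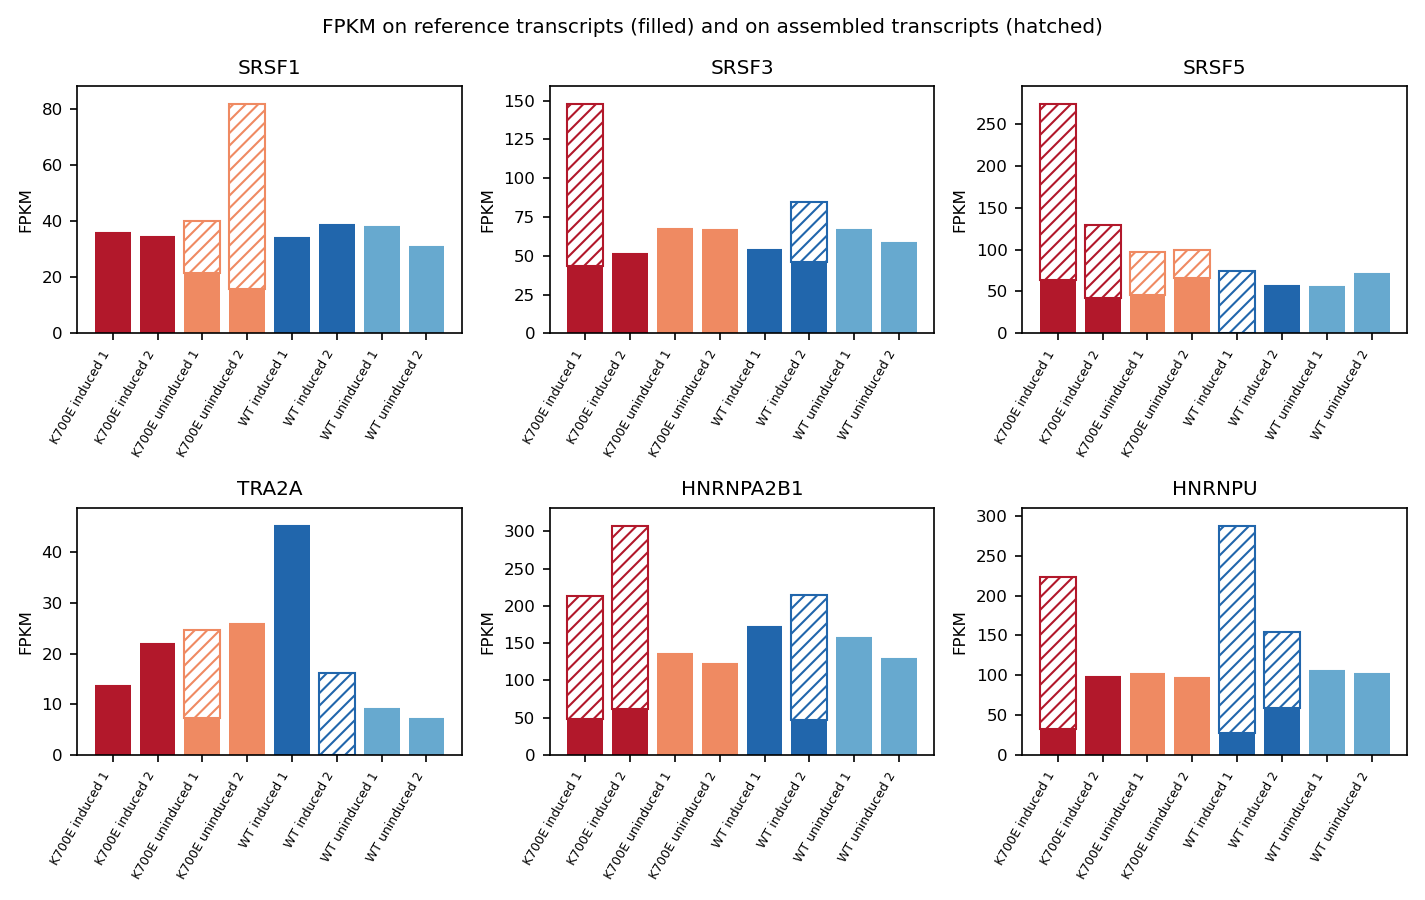
FPKM by library of 6 genes, split into reference transcripts (filled) and transcripts assembled in that library (hatched), K700E_induced at the left and WT_uninduced at the right of each panel. In HNRNPA2B1 and HNRNPU the libraries above the others were those with assembled forms, 3 libraries in each.

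Noncoding forms were compared as the log2 ratio of noncoding to coding reference FPKM, with 0.5 added to each, over the 543 genes whose mean noncoding share was 1% to 99%. No SR protein gene passed. The call rate over all 543 genes was 0% in each of the 4 group comparisons and 0.184% for the interaction. The SRSF3 form with the 456-nt exon (NR_036610) was at 12.5 and 8.79 FPKM in K700E_induced, 10.6 and 10.00 FPKM in K700E_uninduced, 0 and 0 FPKM in WT_induced and 24.4 and 8.44 FPKM in WT_uninduced. Beside it the coding form (NM_003017) was at 31.0 and 42.2 FPKM in K700E_induced, 56.4 and 56.9 FPKM in K700E_uninduced, 53.7 and 46.0 FPKM in WT_induced and 42.0 and 49.6 FPKM in WT_uninduced. Where a form is listed at 0, a difference of log2 ratios depends on the 0.5 added and has no fixed size. The poison exon form was listed at 0 in both WT_induced libraries and above 8 FPKM in the other six libraries. A listing at 0 was common, with 60.8% to 65.7% of the 543 genes having their noncoding forms at 0 in a given library.

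As a share of reference SRSF3, the noncoding form took 28.8% and 17.2% in K700E_induced, 15.8% and 14.9% in K700E_uninduced, 0% in both WT_induced libraries and 36.7% and 14.5% in WT_uninduced. The log2 ratio difference was -5.02 (SE 2.13) on WT induction, with a limma adjusted p of 0.853 (unadjusted 0.0404), and 4.92 (SE 2.13) between the induced lines, with a limma adjusted p of 0.937 (unadjusted 0.0440). On K700E induction it was 0.67 (SE 2.13, limma adjusted p 1), and the interaction of 5.69 (SE 3.02) did not pass (limma adjusted p 0.939). In WT_induced replicate 2 a 1210-nt assembled form that held an intron found only in the noncoding form was at 38.4 FPKM, so the poison exon was not without signal in that library, and with assembled forms counted the share there was 45.5%. Counting them also put K700E_induced replicate 1 at 8.47%, and the means became 12.9% ± 6.20 in K700E_induced and 22.7% ± 32.1 in WT_induced (SD, n = 2 each), so the order of these groups turned.

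The noncoding reference forms of SRSF1, SRSF6 and SRSF10 were at 8.72 FPKM or less and above 0 in 1 to 3 libraries each. That of SRSF6, with the 268-nt exon (NR_034009), was at 3.89 FPKM in K700E_induced replicate 2, 4.46 FPKM in K700E_uninduced replicate 2 and 3.27 FPKM in WT_uninduced replicate 1 and at 0 in 5 libraries. In K700E_uninduced replicate 1 an assembled SRSF6 form with a noncoding-only intron was at 20.4 FPKM. The extended-exon form of SRSF10 (NR_034035) was at 8.72 FPKM in K700E_induced replicate 1 and 6.64 FPKM in WT_induced replicate 1 and at 0 in the other six. With assembled forms that held a noncoding-only intron, SRSF10 had noncoding signal in 6 libraries, at 8.72 and 4.80 FPKM in K700E_induced, 21.4 and 0 FPKM in K700E_uninduced, 6.64 and 0 FPKM in WT_induced and 8.62 and 4.57 FPKM in WT_uninduced. The share was highest in K700E_uninduced replicate 1 (53.8%) and WT_uninduced replicate 1 (35.0%). WT_induced (14.9% and 0%) lay below WT_uninduced (35.0% and 15.7%) and below K700E_induced (16.7% and 15.8%). The other pairs of groups compared overlapped. How often this share did not overlap over all genes was not counted. SRSF6, SRSF10 and SRSF1 had limma adjusted p of 0.937 to 1 in all 5 comparisons of the noncoding share.

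SRSF1 had its noncoding form (NR_034041, spliced near its end within what is the untranslated part of the coding forms) in 1 library, K700E_induced replicate 2, at 6.71 FPKM. A 4522-nt assembled form with 4 introns, which held the noncoding form's own intron together with the intron spliced in the main coding form, was found at 18.7 and 65.8 FPKM in K700E_uninduced and at 0 in the other six libraries. It made up 46.8% and 80.7% of SRSF1 in those libraries. As a transcript share its log2 ratio difference was -7.07 (SE 2.08, limma adjusted p 0.886) on K700E induction and 7.04 (SE 2.08, limma adjusted p 0.863) between the uninduced lines. The main coding form (NM_006924) was at 22.1 and 27.6 FPKM in K700E_induced, 16.3 and 15.8 FPKM in K700E_uninduced, 34.0 and 31.3 FPKM in WT_induced and 37.7 and 30.8 FPKM in WT_uninduced.

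**Figure D4:**
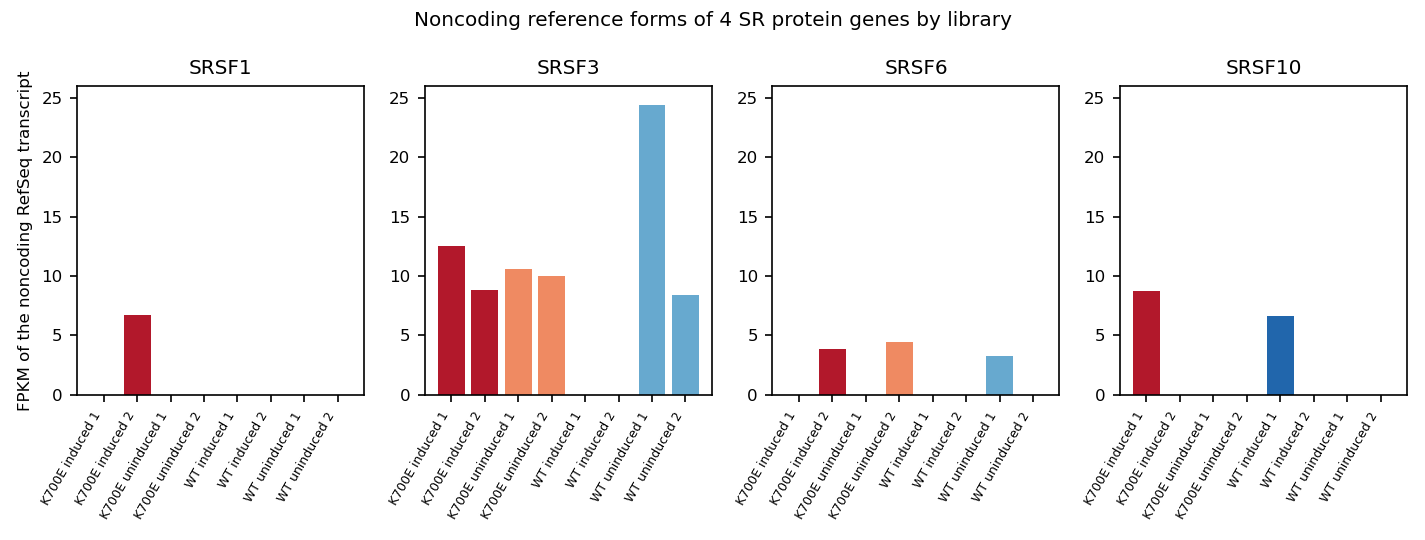
FPKM of the noncoding RefSeq transcript of SRSF1, SRSF3, SRSF6 and SRSF10 in the 8 libraries, on a common axis. SRSF3 was above 8 FPKM in 6 libraries and at 0 in both WT_induced libraries, and the other genes were above 0 in 1 to 3 libraries.

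Transcript choice within the members was tested over 71 transcripts of 20 members, as the log2 ratio between the FPKM of each transcript and that of all others of the gene. None passed, and over all 24716 transcripts tested the call rate was 0% in every comparison. At an unadjusted p under 0.05 there were 5 member transcripts on K700E induction and 4 on WT induction, 6 for K700E_induced against WT_induced, 4 for K700E_uninduced against WT_uninduced and 8 for the interaction. These are 5.63% to 11.3% of the 71, against 3.70% to 4.01% of all transcripts tested, and the transcripts of a gene are not independent, since their shares sum to 100%. HNRNPA2B1 has a form that includes an extra exon (NM_031243, hnRNP B1) and one that skips it (NM_002137, hnRNP A2). NM_031243 was at 0 and 0 FPKM in K700E_induced, 53.2 and 25.3 FPKM in K700E_uninduced, 36.8 and 46.9 FPKM in WT_induced and 88.9 and 24.9 FPKM in WT_uninduced. It was thus listed at 0 in both K700E_induced libraries alone, where assembled forms held most of the gene (log2 ratio difference -7.73, SE 2.09, limma adjusted p 0.860 on K700E induction).

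HNRNPAB had no assembled form in these libraries. Its shorter form (NM_004499) was at 0 and 0 FPKM in K700E_induced, 17.7 and 28.8 FPKM in K700E_uninduced, 16.3 and 45.4 FPKM in WT_induced and 10.5 and 0 FPKM in WT_uninduced. The longer form (NM_031266), with 1 more intron, was at 90.8 and 79.1 FPKM in K700E_induced, 73.4 and 39.3 FPKM in K700E_uninduced, 71.7 and 24.0 FPKM in WT_induced and 81.2 and 73.8 FPKM in WT_uninduced. The share of the shorter form differed by -6.18 (SE 2.33, limma adjusted p 0.903) on K700E induction and -6.81 (SE 2.33, limma adjusted p 0.873) between the induced lines. In HNRNPUL1 the transcript NM_007040 held the whole gene in K700E_induced, at 104 and 96.7 FPKM, against 23.6 and 38.8 FPKM in K700E_uninduced, 76.9 and 55.7 FPKM in WT_induced and 76.3 and 53.8 FPKM in WT_uninduced (log2 ratio difference 8.82, SE 2.24, limma adjusted p 0.767 on K700E induction). Assembled forms held 70.2% and 68.5% of the gene in K700E_uninduced, at 55.8 and 84.3 FPKM, and the other reference form was at 0 there, so NM_007040 was all of reference HNRNPUL1 in both K700E groups and the difference in its share on K700E induction lay in the assembled forms.

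The 11 genes of these families reached by accession alone were HNRNPA1, HNRNPA3, HNRNPCL1, HNRNPH2, HNRNPK, HNRNPL, HNRNPUL2, HNRNPUL2-BSCL2, PCBP2, SRSF2 and SRSF11. Of these 10 were tested and none passed by gene level. PCBP2 was at 550.1 and 447 FPKM in K700E_induced, 368 and 351 FPKM in K700E_uninduced, 316 and 329 FPKM in WT_induced and 461 and 328 FPKM in WT_uninduced. Its log2 fold change was 0.47 (SE 0.25) on K700E induction and 0.62 (SE 0.25) between the induced lines, with limma adjusted p of 1 and 0.951. SRSF2, an SR protein mutated in myeloid neoplasms, was at 110.5 and 100.2 FPKM in K700E_induced, 97.2 and 107 FPKM in K700E_uninduced, 122 and 84.9 FPKM in WT_induced and 131 and 138 FPKM in WT_uninduced, and its noncoding form (NR_036608) was above 0 only in K700E_uninduced replicate 2, at 19.1 FPKM. In WT_uninduced replicate 2 an assembled SRSF2 form with a noncoding-only intron was at 34.4 FPKM, 24.9% of the gene. SRSF11 was at 24.4 and 77.7 FPKM in K700E_induced, 36.1 and 45.0 FPKM in K700E_uninduced, 24.8 and 31.8 FPKM in WT_induced and 37.1 and 26.7 FPKM in WT_uninduced.

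HNRNPA1 (54674488 to 54679030 on chromosome 12, plus strand), the best studied hnRNP and an exon silencer, held the 1 noncoding share among the 543 that passed. This was for the interaction of line and induction, where 0 of 24716 transcripts passed by transcript share. HNRNPA1 had no assembled form, so its ratio in that test was the same. The transcript NR_002944 was at 0 and 0 FPKM in K700E_induced, 153 and 150.1 FPKM in K700E_uninduced, 150.2 and 159.6 FPKM in WT_induced and 0 and 0 FPKM in WT_uninduced, while the coding NM_002136 was at 801 and 764 FPKM in K700E_induced, 456 and 535 FPKM in K700E_uninduced, 502 and 495 FPKM in WT_induced and 608 and 653 FPKM in WT_uninduced. The noncoding share was 23.5% ± 2.29 in K700E_uninduced and 23.7% ± 0.959 in WT_induced (SD, n = 2 each) and 0% in the other 4 libraries. The interaction was -17.5 on the log2 ratio scale (SE 2.42, limma adjusted p 0.0154), while the simple comparisons did not pass (limma adjusted p 0.140 to 0.219). With NR_002944 at 0 in K700E_induced and WT_uninduced, the size of the interaction depends on the constant added to each FPKM and is not fixed. The call was lost in 6 of 8 fits with 1 library left out, whose limma adjusted p ranged from 0.0397 to 0.111, and was kept only without replicate 1 of K700E_uninduced or of WT_induced. The gene total moved less, at 801 and 764 FPKM in K700E_induced, 609 and 685 FPKM in K700E_uninduced, 652 and 654 FPKM in WT_induced and 608 and 653 FPKM in WT_uninduced. The current RefSeq table gives NR_002944 to the pseudogene HNRNPA1P10, whereas the deposited models place it at HNRNPA1 itself, with 10 exons of which 7 equal those of NM_002136, so the division of reads between the pair is uncertain.

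**Figure D5:**
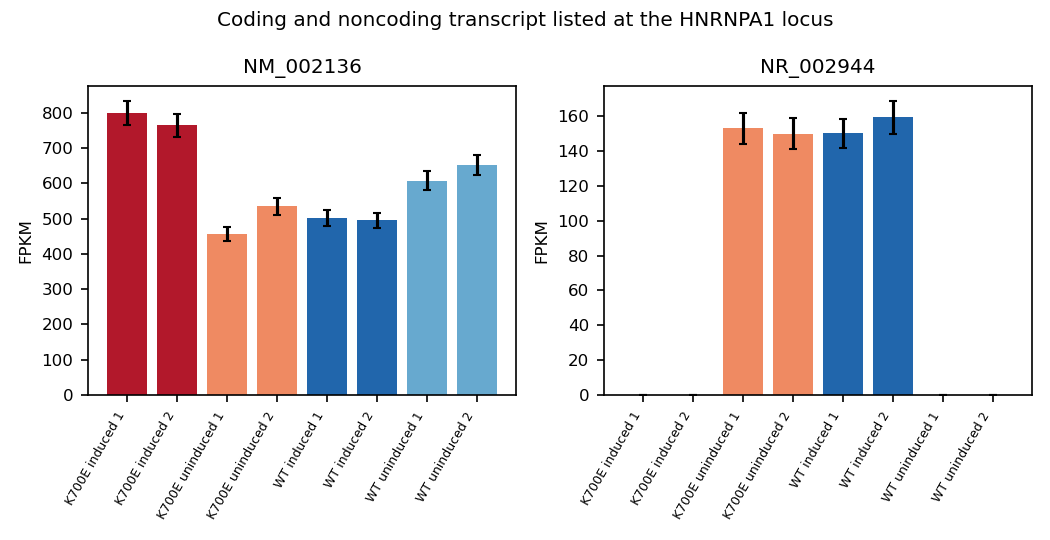
FPKM of NM_002136 and NR_002944 at the HNRNPA1 locus by library, with the deposited interval of each estimate as bars; the panels have different axes. NR_002944 was at 150.1 to 159.6 FPKM in K700E_uninduced and WT_induced and at 0 in K700E_induced and WT_uninduced.

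Genes that act on or beside these proteins gave no call either. Of the kinases, phosphatases and import factor of SR proteins (SRPK, CLK and PP1 genes, DYRK1A and TNPO3) 11 of 12 were tested, and of SR-related and exon junction proteins 24 of 24. Of other RNA-binding proteins of the hnRNP kind 33 of 38 were tested. With limma 0 genes of each list passed in any of the 5 comparisons. On K700E induction the median log2 fold change was -0.10, -0.07 and 0.07 in the 3 lists, against -0.01 over all genes, and on WT induction it was 0.15, 0.27 and 0.00, against 0.01. Between the induced lines it was -0.43, -0.12 and 0.13, against 0, and between the uninduced lines 0.21, 0.11 and 0.03, against 0.02. For the interaction it was -0.57, -0.32 and 0.04, against -0.05. There 4 of 11, 5 of 24 and 17 of 33 genes were above 0 (36.4%, 20.8% and 51.5%), against 48.0% of all genes. These counts were not tested. At an unadjusted p under 0.05 there were 0, 1 and 1 genes on K700E induction (0%, 4.17% and 3.03%), against 4.69% of all genes. On WT induction there were 2, 0 and 0 (18.2%, 0% and 0%), against 4.28%.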

How the data were processed

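Transcript lists of 8 K562 libraries were used, in 4 groups of 2 taken from the labels. The deposited FPKM values were made by the authors from reads of total RNA after ribosomal depletion, with CASAVA, TopHat and Cufflinks named in the submitters' processing notes (build hg19, versions not given). Overlapping transcripts share reads by an estimate, which can put a transcript at 0 while its gene is high, and further transcripts were assembled in each library. The deposited score column of the same lists, a relative score per the file format, was not used. Members and lists were chosen with earlier results of these data known.

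A gene's value summed its reference transcripts (41264, named by the files, a RefSeq table or shared introns), assembled spliced transcripts of 300 nt or more assigned by shared introns (21689 of 22376) and 175 unspliced ones that overlapped a single-exon reference transcript by 90% both ways. Libraries were scaled by median ratios over 7594 genes. With a variance trend and 1 mean per group over the 8 libraries, limma 3.58.1 (R 4.3.3) tested log2(FPKM + 0.5) for genes with a mean of 1 FPKM or more, with Benjamini-Hochberg adjustment within each comparison and a threshold of 0.05. Fold changes on this scale understate the change of low genes. Transcript shares were tested for mean shares of 5% to 95%, and noncoding shares for 1% to 99%. Every member was named, with values by library for SRSF genes, TRA2A, TRA2B, PTBP1, PCBP1, PCBP2 and up to 4 genes each way per comparison with no overlap between groups; HNRNPAB and HNRNPUL1 transcripts, HNRNPH1 and HNRNPA1 were given after their values were seen. Alternatives were pseudocounts of 0.1 and 1, no filter or one at 5 FPKM, other share limits, no scaling, no variance trend, reference transcripts alone, the compared groups alone, a replicate block, each library left out, and length-weighted FPKM, the last chosen after seeing the data. The scripts (Python 3.11.15, pandas 2.3.3) were tested on simulated data.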

Additional observations from a re-analysis of the deposited data

Results flagged for a closer look

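The estimated noncoding share of HNRNPA1 differed between the lines in its response to induction, by a test of the interaction itself (limma adjusted p 0.0154). By transcript share, where the same ratio was tested, 0 of 24716 transcripts passed for the interaction. The division of reads between NR_002944 and NM_002136 is uncertain, since 7 of 10 exons are equal and RefSeq gives NR_002944 to a pseudogene. NR_002944 was at 0 FPKM in both K700E_induced libraries and at 153 and 150.1 FPKM in K700E_uninduced, and at 150.2 and 159.6 FPKM in WT_induced and 0 FPKM in both WT_uninduced libraries. With 1 library left out at a time the interaction stayed between -17.7 and -17.4, and its limma adjusted p ranged from 0.0397 to 0.111, above 0.05 in 6 of 8 cases.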

How the results depend on the processing

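The counts of members past the threshold were 0 in all 5 comparisons by gene level, noncoding share and transcript share, and stayed 0 under every alternative run; the lowest limma adjusted p of any member under any of them was 0.288 by gene level, 0.135 by noncoding share and 0.336 by transcript share. Of 24 fold changes followed, 11 took the opposite sign under some alternative. On reference transcripts alone, which drop the assembled transcripts, these were HNRNPA2B1 (-1.23 on K700E induction, -0.75 between the induced lines), HNRNPD (0.58 between the induced lines, -0.29 on WT induction), HNRNPU (-1.33 on WT induction), SRSF1 (0.92 on K700E induction, -0.88 between the uninduced lines), SRSF5 (-0.070 on K700E induction), SRSF6 (-0.26 between the induced lines) and TRA2A (0.33 on K700E induction, -0.80 on WT induction). HNRNPD was also at 0.049 between the induced lines with FPKM weighted by transcript length, an alternative chosen after seeing the data. Over all genes, calls per comparison by gene level numbered 0 to 3 as reported and 0 to 28 over all alternatives, the most without a filter on low values on K700E induction. Over all genes tested, deviations from group means in libraries of the same replicate number correlated at -0.03 to 0.08. The globin genes HBE1, HBZ, HBA1 and HBA2 did follow the replicate numbers within each line, in opposite directions between the lines. HBE1 was at 453 and 1412 FPKM in K700E_induced and 601 and 2303 FPKM in K700E_uninduced. In the WT line it was at 840 and 351 FPKM when induced and 1077 and 279 FPKM when uninduced. The replicate block was shared by both lines, so it could not take up such a pattern. With this block 0 members passed. The HNRNPA1 interaction, whose size depends on the constant added to each FPKM, was -17.5 with a limma adjusted p of 0.0305. Depth limits low transcripts most, and with 2 libraries a group only wide differences pass.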
